A study of Homo sapiens with 9 samples.

Results

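The genes described here drive the passage from G1 into S phase and the copying of DNA. They were chosen by symbol: 41 names in 6 roles were looked up in the deposited gene table, and all 41 were found among its 36785 genes. The list was drawn up with earlier results of these data known, so its counts beside all tested genes are a description. The roles were cyclins and cyclin-dependent kinases (7 genes), E2F transcription factors (3), origin licensing and the replicative helicase (16), synthesis at the fork (7), nucleotide supply (4), and chromatin and histone supply (4). All 41 passed the filter on low counts, with 527 to 33641 counts per library.

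Expression was measured by RNA sequencing of poly(A)-selected RNA from SKOV3 cells, an established line from a human ovarian cancer. The libraries labelled sh1 (genotype STXBP6 knockdown_1) and sh3 (genotype STXBP6 knockdown_3) were set against those labelled shNC (genotype NC), with 3 libraries per group, and lentivirus had been used on the cells of every group. STXBP6 encodes amisyn, a protein that binds syntaxins of the vesicle fusion machinery. The labels give neither the time after transduction nor the hairpin sequences, nor do they say that replicates were separate cultures. The p-values therefore measure only how far these libraries vary, which may be technical.

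The libraries held 57654447 to 69264400 counts, and 21296 genes were tested. STXBP6 itself had 7, 4 and 26 counts in sh1 libraries and 20, 31 and 18 in sh3 libraries, against 4, 0 and 15 in shNC libraries. It was therefore not lower in the libraries labelled as knockdowns (edgeR log2 fold change 0.87 ± 1.02, adjusted p = 0.56 for sh1, and 1.81 ± 1.01, adjusted p = 0.23 for sh3, ± SE). Every direction below is that of libraries carrying a label. Summed FPKM (fragments scaled by gene length and library size) of 6 markers of SKOV3 was 687 to 717 in sh1 and 1102 to 1148 in sh3, against 1050 to 1164 in shNC. Lists of 6 or 7 markers for fibroblasts, leukocytes, endothelial and mesothelial cells summed to at most 19.3 FPKM in any library. The mitochondrial share of counts was 4.52% to 4.61% in sh1 and 3.63% to 3.93% in sh3, against 3.97% to 4.58% in shNC. The leukocyte list, of which CD68 alone of 6 genes in the table passed the count filter, summed to 10.5 to 11.3 FPKM in sh1 and 17.6 to 18.7 in sh3, against 13.8 to 15.1 in shNC. The fibroblast list summed to 15.9 to 16.4 FPKM in sh1 and 10.6 to 11.4 in sh3, against 13.3 to 17.1 in shNC, most of it LUM and COL1A1. The endothelial list summed to 0.978 to 1.16 FPKM in sh1 and 2.73 to 2.93 in sh3, against 1.96 to 2.21 in shNC, most of it KDR. The mesothelial list summed to 8.86 to 9.63 FPKM in sh1 and 10.3 to 11.9 in sh3, against 14.1 to 19.3 in shNC. PTPRC of the leukocyte list was at 0 on average in sh1 and sh3 and at 0.000989 FPKM in shNC, and DPT of the fibroblast list was at 0 in sh1 and shNC. The part of these shifts in the results below was not tested.

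Replicate 3 of shNC stood apart from its fellows. The chi-square over degrees of freedom was 17 and 18.9 between it and the other shNC libraries, and 9.01 to 11 for every other pair of replicates. Counts of calls without it are given beside the nucleotide supply genes.

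Cells commit to S phase when cyclin D with CDK4 or CDK6, and then cyclin E with CDK2, phosphorylate the retinoblastoma protein and free E2F factors. E2F factors then switch on genes for the replication machinery. In G1 the origin recognition complex, CDC6 and CDT1 load the MCM2 to MCM7 ring onto DNA, and in S phase CDC45 and the GINS complex join that ring to make the active helicase. Polymerases, the sliding clamp PCNA and its loader follow, fed by enzymes that make deoxynucleotides, while chaperones such as CAF-1 place histones on the new DNA.

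The E2F recognition letters are what many of these genes have in common at the DNA level, and 5 promoters are shown because they hold such letters while their genes moved differently. RefSeq promoter windows on GRCh38.p14, from 250 bases before to 50 bases after a listed start, were at hand for 33 of the 41 genes. Each is written 5′ to 3′ along the gene's strand, with capitals marking TTTCCCGC, TTTCGCGC, TTTGCCGC or TTTGGCGC or the reverse complement of one of them.
E2F1, chr20:33686336-33686635, minus strand: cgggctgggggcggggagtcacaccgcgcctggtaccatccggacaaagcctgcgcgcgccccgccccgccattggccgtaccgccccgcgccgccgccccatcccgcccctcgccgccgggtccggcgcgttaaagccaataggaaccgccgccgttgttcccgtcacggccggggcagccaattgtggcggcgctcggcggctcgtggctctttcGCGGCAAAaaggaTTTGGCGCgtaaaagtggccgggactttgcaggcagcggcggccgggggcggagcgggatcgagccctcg
CDC6, chr17:40287629-40287928, plus strand: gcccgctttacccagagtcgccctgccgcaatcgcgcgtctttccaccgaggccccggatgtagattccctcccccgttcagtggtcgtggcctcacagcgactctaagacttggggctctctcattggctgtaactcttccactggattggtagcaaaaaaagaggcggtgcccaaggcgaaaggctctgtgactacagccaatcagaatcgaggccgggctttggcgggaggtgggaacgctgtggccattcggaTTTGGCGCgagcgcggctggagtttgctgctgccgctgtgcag
MCM3, chr6:52284693-52284992, minus strand: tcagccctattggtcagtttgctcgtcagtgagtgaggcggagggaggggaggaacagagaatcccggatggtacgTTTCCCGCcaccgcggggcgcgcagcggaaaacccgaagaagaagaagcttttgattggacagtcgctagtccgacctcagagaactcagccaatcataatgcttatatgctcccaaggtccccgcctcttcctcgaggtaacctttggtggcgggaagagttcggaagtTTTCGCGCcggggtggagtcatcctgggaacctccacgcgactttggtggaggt
MCM6, chr2:135876394-135876693, minus strand: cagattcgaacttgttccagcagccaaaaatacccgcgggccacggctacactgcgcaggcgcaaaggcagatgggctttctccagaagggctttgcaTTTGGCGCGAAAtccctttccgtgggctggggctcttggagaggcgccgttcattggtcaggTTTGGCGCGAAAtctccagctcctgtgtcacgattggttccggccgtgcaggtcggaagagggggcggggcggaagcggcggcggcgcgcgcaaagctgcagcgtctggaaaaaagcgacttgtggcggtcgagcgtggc
GINS1, chr20:25407423-25407722, plus strand: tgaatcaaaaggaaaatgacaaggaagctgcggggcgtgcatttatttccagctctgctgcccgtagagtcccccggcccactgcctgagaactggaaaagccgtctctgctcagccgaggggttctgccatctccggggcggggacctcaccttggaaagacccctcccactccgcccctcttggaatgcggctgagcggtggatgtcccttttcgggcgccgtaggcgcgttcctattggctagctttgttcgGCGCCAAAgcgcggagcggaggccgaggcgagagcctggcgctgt

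E2F1 holds the letters in 2 separate stretches, and E2F1 is known as a target of E2F factors. MCM3 also had 2 matches, CDC6 and GINS1 had 1 each, and MCM6 had 4 matches in 2 identical stretches where matches on opposite strands overlap. At least 1 listed start of 17 of the 33 genes (51.5%) held the letters, compared with 6.24% of the 13042 tested genes that have a window. The CHR letters TTTGAA or TTCGAA, known from late cell-cycle promoters, were found in 2 of the 33 (6.06%) and in 15.8% of the tested genes with a window. CCAAT, on either strand, was found in 19 of the 33 (57.6%) and in 42.3% of the tested genes. None of these matches was tested for binding.

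**Figure D1:**
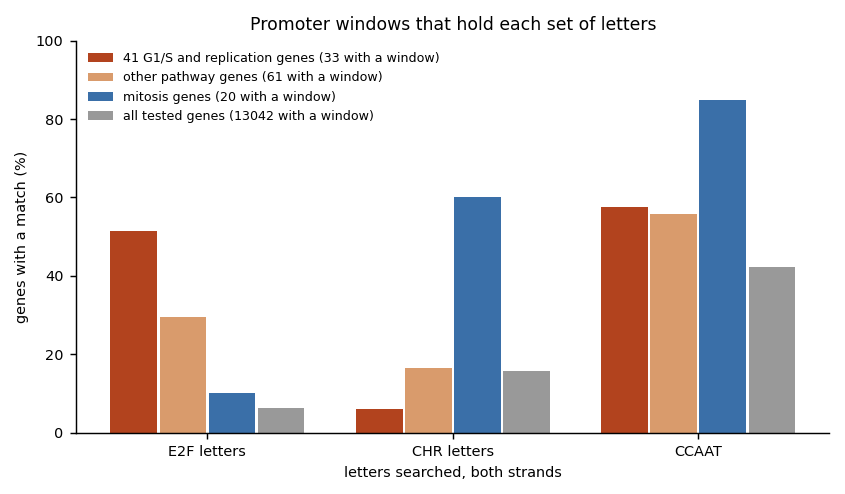
Share of genes (%, vertical axis) with at least 1 promoter window that holds the E2F, CHR or CCAAT letters on either strand, for 4 sets of genes (bars, with the number that have a window). The E2F bar of the 33 G1/S and replication genes stands at 51.5%, above 6.24% for all tested genes, while 60% of 20 mitosis genes hold the CHR letters against 6.06% of the G1/S and replication genes.

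With sh1, 29 of the 41 genes rose, 2 fell and 10 did not pass the test. With sh3, 19 rose, 2 fell and 20 did not pass. The call rests on edgeR's quasi-likelihood test with Benjamini-Hochberg adjustment over all genes, at a threshold of 0.05. Over all 21296 genes 19.9% were called higher and 18.8% lower with sh1, and 14.4% higher and 12.4% lower with sh3. For the mean of sh1 and sh3 against shNC, 25 rose and 2 fell, where the background was 18.5% higher and 17.7% lower. The changes were small: the median log2 fold change of the 41 was 0.20 with sh1 and 0.14 with sh3, compared with -0.02 and -0.01 over all tested genes. A log2 change of 0.5 or more in size was reached by 8 of the 41 genes with sh1, beside 3255 of the 21296 genes tested, and by 0 of the 41 with sh3, beside 1701 of the 21296.

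Both comparisons use the same 3 shNC libraries, so their calls are not independent. Side by side, 18 genes were called higher with each hairpin (CDK2, CDK4, CDK6, E2F8, ORC6, CDT1, MCM6, MCM7, MCM10, CDC45, GINS1, GINS4, RPA2, RRM1, TYMS, TK1, CHAF1A and UHRF1), and CCND1 was called lower with each. Over all tested genes 10.6% were called higher with each hairpin. In level (CPM, counts scaled to a common library size after TMM), all 3 sh1 libraries lay above all 3 shNC libraries for 31 of the 41 genes and below them for 4, where the background was 24.6% and 25.3%. All 3 sh3 libraries lay above the shNC libraries for 22 genes and below for 4, where the background was 20.8% and 19.8%. In bulk libraries a larger share of cells in S phase and more of an mRNA per cell cannot be told apart.

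**Figure D2:**
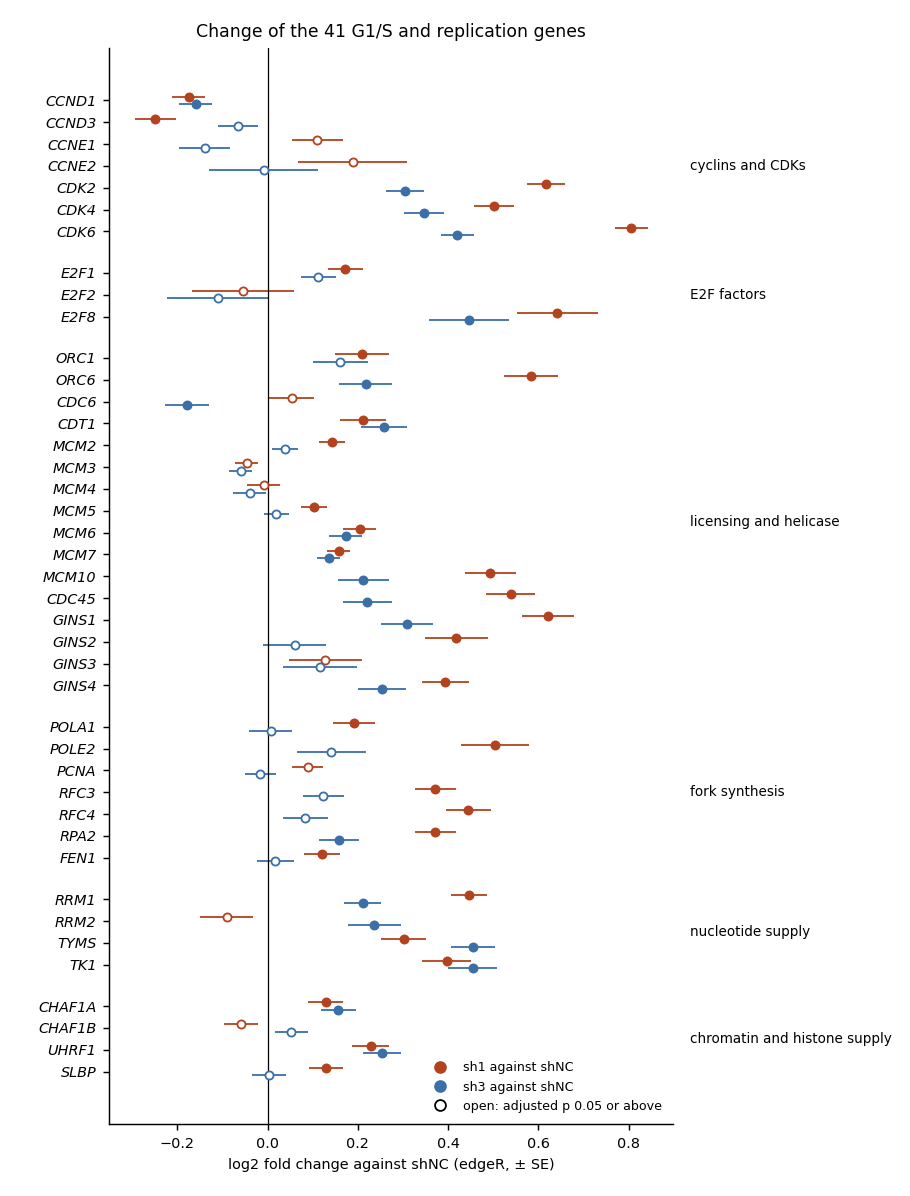
Log2 fold change against shNC (horizontal axis, edgeR, ± SE) of each of the 41 genes, grouped by role, for sh1 and sh3, with filled points at an adjusted p under 0.05. Most points lie right of 0, CDK6 is farthest right with sh1 at 0.81, and CCND1 lies left of 0 with both hairpins.

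Levels in the shNC libraries, compared by FPKM because it accounts for gene length, spanned a wide range. PCNA, the sliding clamp, was highest at 133 ± 3.12 FPKM (SD, n = 3), followed by CCND1 at 93.0 ± 5.23 and FEN1, the nuclease that trims Okazaki fragments, at 57.6 ± 2.81. The next places, MCM3 at 53.0 ± 0.283, TYMS at 51.4 ± 4.21, TK1 at 50.9 ± 4.85 and SLBP at 49.1 ± 2.1, lay within each other's spread except for MCM3 and SLBP. E2F2 was lowest at 1.81 ± 0.175, then POLA1, the catalytic subunit of polymerase alpha, at 2.31 ± 0.115 and CCNE2, a cyclin E, at 2.50 ± 0.392, which overlapped POLA1.

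The 3 kinases rose with each hairpin, CCND1 fell with each, and CCND3 fell with sh1. CDK6 (chromosome 7, 92604921 to 92833917, minus strand, GRCh38), a partner of D-type cyclins, had 108, 110 and 104 CPM in sh1 libraries and 80.7, 85.0 and 80.7 in sh3 libraries, against 60.8, 62.3 and 61.0 in shNC libraries. The 3 groups did not overlap, with sh1 highest and shNC lowest. Its log2 fold change was 0.81 ± 0.04 with sh1 (1.75-fold, edgeR adjusted p = 1.8e-08), the highest of the 41 genes, and 0.42 ± 0.04 with sh3 (1.34-fold, adjusted p = 6.6e-06). CDK2 (chromosome 12, 55966781 to 55972385, plus strand), the partner of cyclin E, had 90.2, 97.8 and 98.6 CPM in sh1 and 76.6, 77.0 and 77.3 in sh3, against 62.7, 64.5 and 59.8 in shNC. It showed the same order without overlap, at 0.62 ± 0.04 with sh1 (edgeR adjusted p = 4.3e-07) and 0.30 ± 0.04 with sh3 (adjusted p = 0.00026). CDK4, the other cyclin D partner, had 169, 167 and 174 CPM in sh1 and 156, 151 and 151 in sh3, against 113, 118 and 129 in shNC. That is 0.50 ± 0.04 with sh1 (edgeR adjusted p = 3.1e-06) and 0.35 ± 0.04 with sh3 (adjusted p = 0.00012).

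CCND1 (chromosome 11, 69641156 to 69654474, plus strand) encodes cyclin D1, which activates CDK4 and CDK6. It had 415, 425 and 431 CPM in sh1 and 420, 433 and 431 in sh3, against 499, 485 and 450 in shNC. All 6 sh1 and sh3 libraries lay below all shNC libraries, with log2 fold changes of -0.17 ± 0.04 for sh1 (edgeR adjusted p = 0.0024) and -0.16 ± 0.04 for sh3 (adjusted p = 0.0067). Per length, the FPKM of CCND1 was 1.62 ± 0.0340 times that of CDK4 in sh1 and 1.82 ± 0.0694 times in sh3, against 2.60 ± 0.309 times in shNC (SD, n = 3, given as a description since this ratio was picked with the values known). CCND3, cyclin D3, had 48.0, 52.8 and 49.3 CPM in sh1 and 56.4, 57.4 and 56.6 in sh3, against 57.2, 60.1 and 61.0 in shNC. It fell with sh1 (-0.25 ± 0.05, edgeR adjusted p = 0.00086), while the value with sh3 was -0.07 ± 0.04 (adjusted p = 0.33) and its sh3 and shNC libraries overlapped.

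The E-type cyclins, which switch on CDK2, did not pass the test against shNC. CCNE1 averaged 23.1 ± 0.787 CPM in sh1 and 19.4 ± 0.515 in sh3, against 21.4 ± 0.302 in shNC (SD, n = 3). Its 3 groups did not overlap, with sh1 highest and sh3 lowest (edgeR adjusted p = 0.15 for sh1 and 0.09 for sh3). With sh3 it was called lower with library totals in place of TMM (edgeR adjusted p = 0.049) and in the limma fits (adjusted p = 0.023 to 0.039). CCNE2 averaged 13.5 ± 0.614 CPM in sh1 and 11.8 ± 1.28 in sh3, against 11.9 ± 1.83 in shNC. CCNE2 shares at least 1628 bases of exon with INTS8 on the opposite strand, which had 534% of its counts. Since it is not given whether the counting used strand, reads of such pairs are uncertain. The same holds more weakly for CDK4 and TSPAN31, which had 13.3% of the counts of CDK4.

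**Figure D3:**
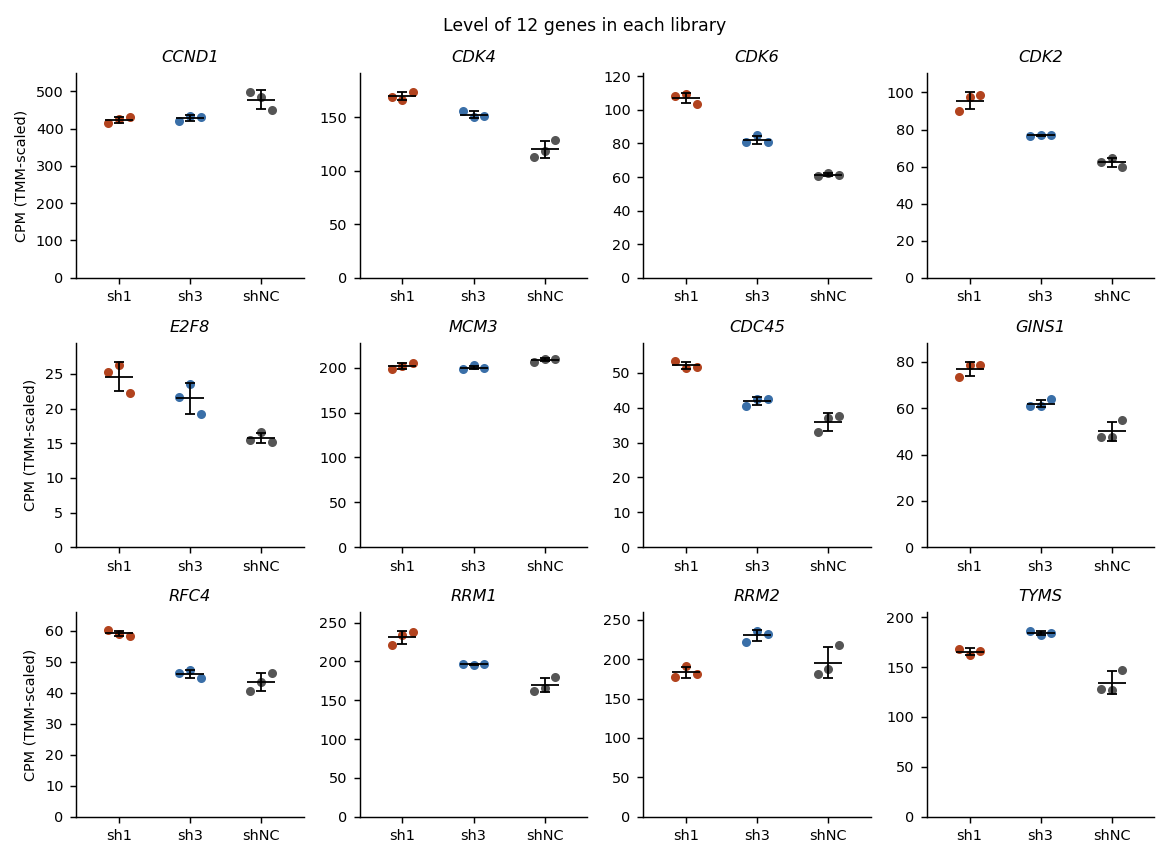
CPM on TMM-scaled totals (vertical axis, from 0) of 12 of the genes in each library of sh1, sh3 and shNC, with points for libraries and bars for the mean ± SD of 3. CDK6 falls into 3 steps of about 107, 82.1 and 61.4 CPM, CCND1 is lower in sh1 and sh3, and RRM2 is highest in sh3.

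Among the E2F factors, E2F8 moved most. E2F8 is an atypical family member that represses E2F targets. It had 25.3, 26.2 and 22.2 CPM in sh1 and 21.7, 23.6 and 19.2 in sh3, against 15.5, 16.6 and 15.1 in shNC. Both the sh1 and the sh3 libraries lay above shNC and overlapped each other, and the gene rose by 0.64 ± 0.09 on the log2 scale with sh1 (edgeR adjusted p = 0.00012) and by 0.45 ± 0.09 with sh3 (adjusted p = 0.0029). E2F1, an activator, had 97.5, 95.2 and 104 CPM in sh1 and 96.3, 93.0 and 95.4 in sh3, against 89.4, 85.0 and 89.0 in shNC. It rose with sh1 (0.17 ± 0.04, edgeR adjusted p = 0.004), and with sh3 it lay above shNC without overlap but at an adjusted p of 0.054 (0.11 ± 0.04), which became 0.046 and 0.036 without sh1 replicate 2 or 3. E2F2, another activator, averaged 10.3 ± 0.829 CPM in sh1 and 9.89 ± 0.977 in sh3, against 10.7 ± 1.06 in shNC, and its groups overlapped.

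In the licensing and helicase role, 12 of 16 genes rose with sh1, and with sh3 8 rose and 1 fell. Among all tested genes, 19.9% were called higher with sh1, and 14.4% higher and 12.4% lower with sh3. The median log2 fold change of the 16 was 0.21 with sh1 and 0.15 with sh3. The 16 genes are taken here in the order in which they act, from the origin recognition complex to the active helicase.

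ORC6 is the smallest subunit of the origin recognition complex. It had 66.7, 72.0 and 65.9 CPM in sh1 and 54.3, 54.7 and 49.7 in sh3, against 42.2, 47.3 and 47.0 in shNC. The 3 groups did not overlap, and the log2 fold change was 0.58 ± 0.06 with sh1 (edgeR adjusted p = 9.1e-06) and 0.22 ± 0.06 with sh3 (adjusted p = 0.016). The sh3 call for ORC6 was lost without sh3 replicate 1 (adjusted p = 0.06), sh3 replicate 2 (0.068) or shNC replicate 1 (0.068). ORC1, the largest subunit, averaged 29.5 ± 0.433 CPM in sh1 and 28.5 ± 2.31 in sh3, against 25.5 ± 0.130 in shNC, and passed the test with sh1 (0.21 ± 0.06, edgeR adjusted p = 0.016). With sh3 it passed only when sh3 replicate 1 was left out (adjusted p = 0.012).

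The 2 MCM loaders differed. CDT1 averaged 44.2 ± 1.20 CPM in sh1 and 45.6 ± 1.84 in sh3, against 38.2 ± 1.93 in shNC, and rose with each hairpin (0.21 ± 0.05, edgeR adjusted p = 0.0057, and 0.26 ± 0.05, adjusted p = 0.0026). CDC6 had 104 CPM in each sh1 library and 92.8, 87.2 and 85.6 in sh3, against 96.7, 95.2 and 109 in shNC. The sh3 libraries lay below all others, and sh1 libraries fell inside the shNC range. CDC6 fell with sh3 (-0.18 ± 0.05, edgeR adjusted p = 0.02), a call lost without sh3 replicate 2 (adjusted p = 0.076) or sh3 replicate 3 (0.086), and its value with sh1 was 0.05 ± 0.05 (adjusted p = 0.45, and 0.033 without shNC replicate 3, where it was called higher).

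Of the 6 subunits of the MCM ring, MCM6 and MCM7 were called higher with each hairpin. MCM6 averaged 109 ± 2.17 CPM in sh1 and 107 ± 4.25 in sh3, against 94.6 ± 2.22 in shNC, the largest change in the ring at 0.20 ± 0.04 with sh1 (edgeR adjusted p = 0.0008) and 0.17 ± 0.04 with sh3 (adjusted p = 0.0039). MCM7 rose with each hairpin (0.16 ± 0.03 and 0.14 ± 0.03), while MCM2 and MCM5 passed the test with sh1 and not with sh3 (0.14 ± 0.03 and 0.10 ± 0.03 with sh1, 0.04 ± 0.03 and 0.02 ± 0.03 with sh3). MCM3 averaged 202 ± 3.66 CPM in sh1 and 200 ± 2.02 in sh3, against 209 ± 1.62 in shNC, and MCM4 averaged 258 ± 7.41 in sh1 and 253 ± 11.5 in sh3, against 260 ± 5.22 in shNC. Neither passed the test, although all sh1 and sh3 libraries lay below all shNC libraries for MCM3. These small changes depend on the scaling. With library totals in place of TMM, MCM5 lost its sh1 call (edgeR adjusted p = 0.079) and MCM3 was called lower with sh1 (0.02). The limma fits did the same (adjusted p = 0.058 to 0.067 for MCM5 and 0.012 to 0.014 for MCM3). MCM2 shares at least 45 bases of exon with TPRA1 on the opposite strand, which had 46.4% of its counts.

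CDC45 and the GINS complex turn the loaded ring into an active helicase, and of these 5 genes GINS1, GINS4 and CDC45 were called with each hairpin. GINS1 (chromosome 20, 25391008 to 25449072, plus strand), whose promoter is among those printed above, had 73.3, 78.6 and 78.8 CPM in sh1 and 61.0, 61.1 and 63.8 in sh3, against 47.5, 47.8 and 54.8 in shNC. The groups did not overlap, at 0.62 ± 0.06 with sh1 (1.54-fold, edgeR adjusted p = 4.4e-06) and 0.31 ± 0.06 with sh3 (1.24-fold, adjusted p = 0.0017). CDC45 had 53.3, 51.3 and 51.7 CPM in sh1 and 40.5, 42.4 and 42.5 in sh3, against 32.9, 37.0 and 37.7 in shNC. It too rose in 3 separate steps, by 0.54 ± 0.05 with sh1 (edgeR adjusted p = 9e-06) and 0.22 ± 0.05 with sh3 (adjusted p = 0.0099). GINS2 had 33.5, 32.5 and 38.5 CPM in sh1 and 25.8, 27.3 and 28.5 in sh3, against 25.1, 26.6 and 26.6 in shNC. Its rise with sh1 was 0.42 ± 0.07 (edgeR adjusted p = 0.00044), and its sh3 and shNC libraries overlapped (0.06 ± 0.07, adjusted p = 0.59). GINS2 shares at least 7 bases of exon with GSE1 on the opposite strand, whose counts were 146% of its own.

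GINS4 averaged 82.8 ± 4.46 CPM in sh1 and 75.1 ± 3.16 in sh3, against 63.0 ± 3.53 in shNC, and rose with each hairpin. GINS3 averaged 29.7 ± 1.44 CPM in sh1 and 29.4 ± 2.39 in sh3, against 27.1 ± 2.78 in shNC, and did not pass the test. MCM10, which helps to activate the helicase, averaged 43.4 ± 2.52 CPM in sh1 and 35.7 ± 0.773 in sh3, against 30.9 ± 1.57 in shNC, and rose with each (0.49 ± 0.06, edgeR adjusted p = 2.4e-05, and 0.21 ± 0.06, adjusted p = 0.015). The sh3 call for MCM10 was lost without sh3 replicate 2 (adjusted p = 0.056) or shNC replicate 1 (0.06). Per length, CDC45 stood at 0.520 ± 0.0133 of the mean FPKM of MCM2 to MCM7 in sh1 and 0.430 ± 0.00696 in sh3, against 0.376 ± 0.0257 in shNC (SD, n = 3, a description of a ratio picked with the values known).

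**Figure D4:**
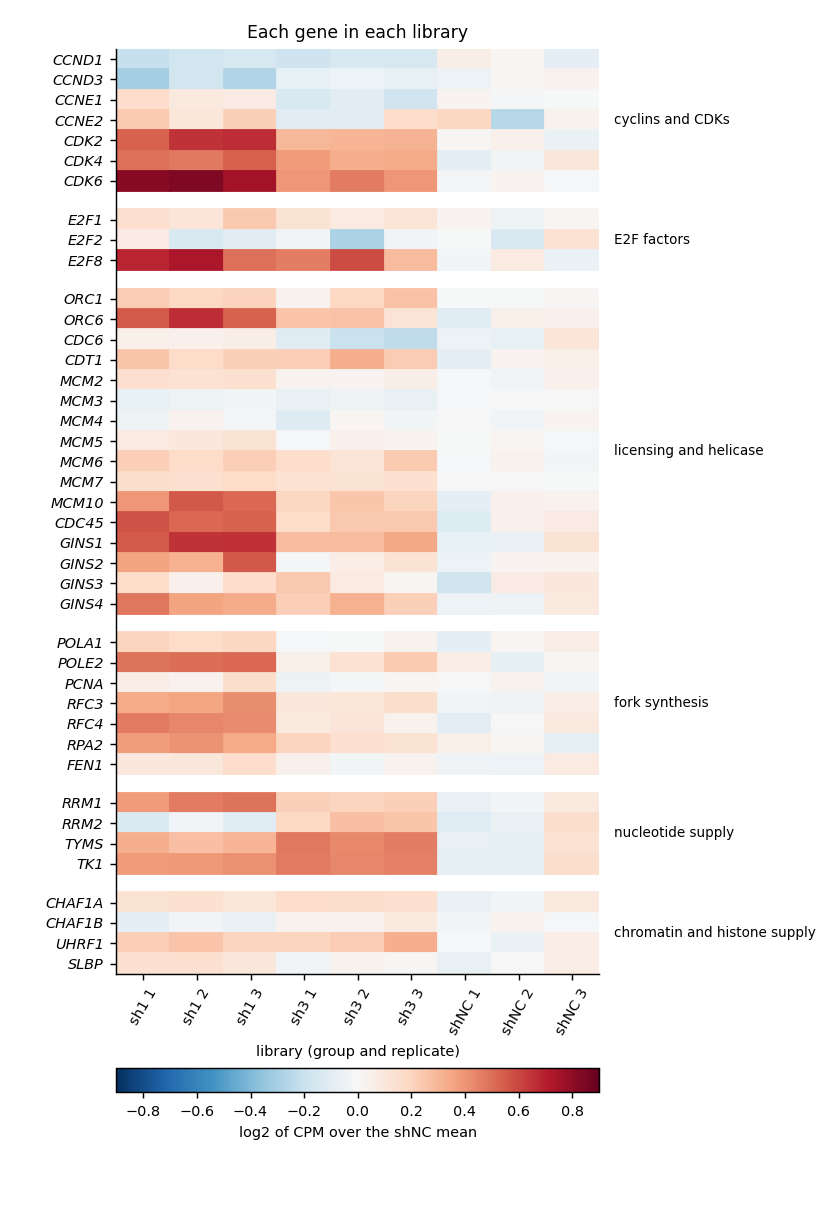
Log2 of each library's CPM over the shNC mean (colour scale from -0.9 to 0.9) for the 41 genes (rows, by role) in the 9 libraries (columns, sh1, sh3, then shNC). The sh1 columns are reddest for CDK6, GINS1 and E2F8, and the rows of MCM2 to MCM7 stay pale. The third shNC library is redder than the other shNC libraries for TYMS, TK1 and RRM2.

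At the fork, 6 of 7 genes rose with sh1, with a median log2 fold change of 0.37, and 1 rose with sh3, where the median was 0.08. Over all tested genes 19.9% were called higher with sh1 and 14.4% with sh3, so the sh3 count is no more than that background. RPA2, a subunit of the protein that coats single-stranded DNA, was the gene called with both hairpins. RPA2 had 62.4, 63.6 and 61.0 CPM in sh1 and 55.4, 53.2 and 52.7 in sh3, against 50.0, 48.8 and 45.6 in shNC. The groups did not overlap, at 0.37 ± 0.04 with sh1 (edgeR adjusted p = 3.7e-05) and 0.16 ± 0.04 with sh3 (adjusted p = 0.02). The sh3 call was lost without sh3 replicate 1 (adjusted p = 0.075) or shNC replicate 3 (0.053).

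POLE2, an accessory subunit of the leading-strand polymerase, had 18.2, 18.4 and 18.5 CPM in sh1 and 13.4, 14.2 and 15.2 in sh3, against 13.6, 12.3 and 13.1 in shNC. RFC4, a subunit of the clamp loader, had 60.1, 58.9 and 58.5 CPM in sh1 and 46.2, 47.2 and 44.7 in sh3, against 40.7, 43.5 and 46.2 in shNC. For both genes the sh1 libraries stood above the rest, and the sh3 and shNC libraries overlapped. POLE2 changed by 0.50 ± 0.08 with sh1 (edgeR adjusted p = 0.00021) and was at 0.14 ± 0.08 with sh3 (adjusted p = 0.21). RFC4 changed by 0.44 ± 0.05 with sh1 (edgeR adjusted p = 2.1e-05) and was at 0.08 ± 0.05 with sh3 (adjusted p = 0.26). RFC4 shares at least 21 bases of exon with EIF4A2 on the opposite strand, whose counts were 512% of its own.

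RFC3, another clamp loader subunit, averaged 52.8 ± 1.52 CPM in sh1 and 44.4 ± 0.861 in sh3, against 40.8 ± 1.71 in shNC. POLA1 averaged 44.3 ± 0.432 CPM in sh1 and 39.0 ± 0.609 in sh3, against 38.8 ± 2.04 in shNC. Both passed the test with sh1 (0.37 ± 0.04 for RFC3 and 0.19 ± 0.05 for POLA1) and not with sh3, although RFC3 did without shNC replicate 3 (adjusted p = 0.02). FEN1 averaged 148 ± 3.98 CPM in sh1 and 138 ± 3.75 in sh3, against 137 ± 7.03 in shNC, and was called with sh1 (0.12 ± 0.04, edgeR adjusted p = 0.031). That call was lost without sh1 replicate 2 or 3 (adjusted p = 0.052 and 0.11) or shNC replicate 1 or 2 (0.11 each). It was also lost with library totals (edgeR adjusted p = 0.12), with no filter (0.052) and in the limma fits (adjusted p = 0.076 to 0.16). FEN1 shares at least 49 bases of exon with FADS2 on the same strand, which had 161% of its counts. Strand would not separate their reads there. PCNA, at 214 ± 9.07 CPM in sh1 and 199 ± 4.21 in sh3, against 201 ± 4.33 in shNC, did not pass in either comparison with shNC, except with sh1 when sh1 replicate 2 was left out (adjusted p = 0.036).

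Nucleotide supply held RRM2 and TYMS, which were among the 4 genes higher in sh3 than in sh1. All 4 genes of this role rose with sh3 (median log2 fold change 0.35) and 3 of 4 rose with sh1 (median 0.35). Among all tested genes, 14.4% were called higher with sh3 and 19.9% with sh1. TYMS (chromosome 18, 657653 to 673578, plus strand), thymidylate synthase, had 168, 162 and 166 CPM in sh1 and 186, 182 and 184 in sh3, against 128, 127 and 147 in shNC. TK1, the thymidine kinase of the salvage route, had 132, 133 and 135 CPM in sh1 and 140, 138 and 139 in sh3, against 95.7, 95.7 and 113 in shNC. For neither gene did sh1 or sh3 libraries overlap shNC. TYMS rose by 0.30 ± 0.05 with sh1 (edgeR adjusted p = 0.0004) and by 0.46 ± 0.05 with sh3 (adjusted p = 3.4e-05), and TK1 rose by 0.40 ± 0.05 (adjusted p = 0.00011) and 0.46 ± 0.05 (adjusted p = 7.4e-05). TYMS shares at least 719 bases of exon with ENOSF1 on the opposite strand, which had 38.6% of its counts.

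The subunits of ribonucleotide reductase, which turns ribonucleotides into deoxynucleotides, parted from each other with sh1, while both rose with sh3. RRM1, the large subunit, had 221, 234 and 238 CPM in sh1 and 197, 195 and 197 in sh3, against 162, 166 and 180 in shNC. It rose in steps without overlap, by 0.45 ± 0.04 with sh1 (edgeR adjusted p = 3.9e-06) and 0.21 ± 0.04 with sh3 (adjusted p = 0.0022). RRM2, the small subunit whose supply is tied to S phase, had 178, 191 and 181 CPM in sh1 and 222, 236 and 232 in sh3, against 181, 187 and 218 in shNC. RRM2 was higher in sh3 than in every other library (0.24 ± 0.06 against shNC, edgeR adjusted p = 0.011), and its sh1 and shNC libraries overlapped (-0.09 ± 0.06, adjusted p = 0.27). In FPKM, RRM2 stood at 0.367 ± 0.0130 of RRM1 in sh1 and 0.543 ± 0.0192 in sh3, against 0.532 ± 0.0244 in shNC (SD, n = 3, a description of a ratio picked with the values known).

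Replicate 3 of shNC was the highest shNC library for all 4 genes of this role, where its summed level was 658 CPM and the other shNC libraries had 567 and 576. Without it, 30 of the 41 genes were called higher with sh1 and 19 with sh3, and the number lower stayed at 2 for each hairpin. The mean contrast then held 29 genes called higher, with FEN1 (edgeR adjusted p = 0.013), POLA1 (0.032), RRM2 (0.0032) and SLBP (0.029) added to the 25. In the fit of all 9 libraries, 19.9% of all tested genes were called higher with sh1, 14.4% with sh3 and 18.5% for the mean.

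Among chromatin genes, UHRF1, which brings the maintenance DNA methyltransferase to new DNA, had 146, 149 and 144 CPM in sh1 and 143, 147 and 157 in sh3, against 124, 120 and 131 in shNC. It rose by 0.23 ± 0.04 with sh1 (edgeR adjusted p = 0.00088) and by 0.25 ± 0.04 with sh3 (adjusted p = 0.00077), and neither sh1 nor sh3 overlapped shNC. CHAF1A, the large subunit of the CAF-1 histone chaperone, had 94.0, 94.9 and 92.7 CPM in sh1 and 96.3, 95.7 and 95.3 in sh3, against 82.5, 84.1 and 91.1 in shNC. Its sh1 and sh3 libraries also lay above shNC, by 0.13 ± 0.04 with sh1 (edgeR adjusted p = 0.02) and 0.16 ± 0.04 with sh3 (adjusted p = 0.0099). CHAF1B, the middle CAF-1 subunit, averaged 55.9 ± 0.982 CPM in sh1 and 60.4 ± 1.24 in sh3, against 58.2 ± 1.23 in shNC, and did not pass against shNC. SLBP, which binds the stem-loop of histone mRNAs, averaged 109 ± 1.77 CPM in sh1 and 100 ± 2.30 in sh3, against 99.8 ± 4.58 in shNC, and was called with sh1 (0.13 ± 0.04, edgeR adjusted p = 0.017). The sh1 call was lost for CHAF1A without sh1 replicate 1 or 2 (adjusted p = 0.05 and 0.058) or shNC replicate 1 or 2 (0.084 and 0.07). It was lost for SLBP without sh1 replicate 1 or 2 (adjusted p = 0.05 and 0.052) or shNC replicate 1 (0.07). With library totals in place of TMM both sh1 calls were lost too (edgeR adjusted p = 0.084 for CHAF1A and 0.073 for SLBP). The limma fits also lost them (adjusted p = 0.051 to 0.097 for CHAF1A and 0.051 to 0.11 for SLBP). CHAF1A overlaps UBXN6 by at least 20 bases on the opposite strand, and CHAF1B overlaps MORC3 by at least 89 bases on the same strand. These partners had 123% and 83.3% of their counts.

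The hairpins differed from each other. Set directly against sh1, sh3 was higher for 4 of the 41 genes and lower for 20, where 12.9% of all tested genes were called higher and 13% lower. The difference itself takes no value from shNC, but its p-values do, since all 9 libraries share 1 estimate of the spread. The median log2 difference of the 41 was -0.10, compared with 0.01 over all tested genes. All 3 sh3 libraries lay above all sh1 libraries for 6 genes and below for 22, where the background was 21% and 20.8%. The genes lower in sh3 were in the kinase, licensing and fork roles, with 4 of 7 cyclins and CDKs, 8 of 16 licensing and helicase genes and 6 of 7 fork genes, besides RRM1 and SLBP.

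CDK6 had the largest difference, at -0.39 ± 0.04 (sh3 over sh1, edgeR adjusted p = 1.4e-05). ORC6 followed at -0.37 ± 0.06 (adjusted p = 0.00072), with POLE2, RFC4 and GINS2 at -0.36 (edgeR adjusted p = 0.0041, 0.00025 and 0.0025), CDC45 at -0.32 ± 0.05 (adjusted p = 0.0011), and CDK2 and GINS1 at -0.31. The 4 genes higher in sh3 were RRM2 (0.33 ± 0.06, edgeR adjusted p = 0.0017), CCND3 (0.18 ± 0.05, adjusted p = 0.011), TYMS (0.15 ± 0.05, adjusted p = 0.037) and CHAF1B (0.11 ± 0.04, adjusted p = 0.048). RRM2 kept its call whichever library was left out, and CCND3 lost it without sh1 replicate 1 (adjusted p = 0.051). TYMS lost it without any single sh1 or sh3 library (adjusted p = 0.069 to 0.13), and CHAF1B without any library but shNC replicate 3 (0.051 to 0.14). Among the genes lower in sh3, the difference was lost in several such fits for CDK4 (adjusted p = 0.057 to 0.087), MCM2 (0.052 to 0.063), MCM5 (0.054 to 0.17), PCNA (0.06 to 0.17) and SLBP (0.07 to 0.11). Of the 18 genes called higher with both hairpins, 9 were lower in sh3 than in sh1, 1 was higher and 8 did not pass. Of the 11 called higher with sh1 and not with sh3, 8 were lower in sh3 than in sh1, and E2F1, ORC1 and FEN1 did not pass.

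**Figure D5:**
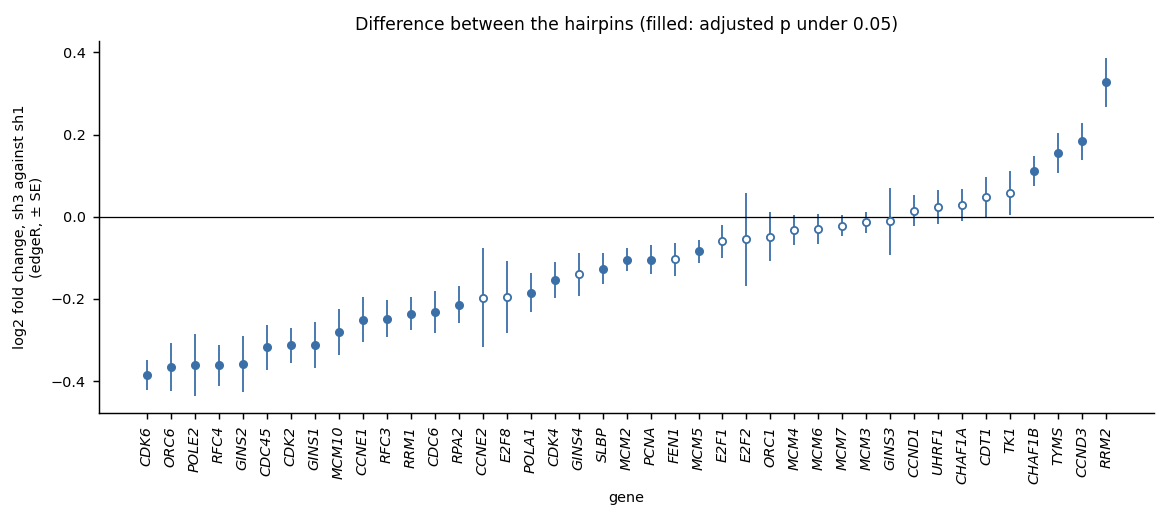
Log2 fold change of sh3 against sh1 (vertical axis, edgeR, ± SE) of the 41 genes in rising order, filled at an adjusted p under 0.05. The order runs from CDK6 at -0.39 to RRM2 at 0.33, with 20 filled points below 0 and 4 above it.

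The E2F letters were set beside the changes of the 33 genes that have a promoter window. Of the 17 with the letters, 12 rose with sh1 and 6 with sh3, at median log2 fold changes of 0.19 and 0.12. Of the 16 without them, 12 rose with sh1 and 9 with sh3, at medians of 0.30 and 0.19. The background of all tested genes called higher was 19.9% with sh1 and 14.4% with sh3. Only exact matches were counted, so a gene without them may hold variant letters, such as tttggcggg in the CDC45 window. The split therefore cannot separate targets of E2F factors from other genes, and the part of E2F factors was not tested. MCM3 and CDC6, whose promoters hold the letters, were not called higher with either hairpin, while GINS1, E2F1 and MCM6 rose with sh1.

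A further 72 genes of the same processes were listed, and 71 were tested. That list too was drawn up with earlier results of these data known, so its counts are a description. Of the 71, 50 rose and 7 fell with sh1 (median 0.25), and 25 rose and 4 fell with sh3 (median 0.13). The background was 19.9% higher and 18.8% lower with sh1, and 14.4% higher and 12.4% lower with sh3. In sh3 against sh1, 7 were higher and 32 lower, where the background was 12.9% and 13%. CCNA2, the cyclin that works with CDK2 in S phase, rose by 0.87 with sh1 (edgeR adjusted p = 5.9e-07) and 0.77 with sh3 (adjusted p = 4e-06), and DBF4B, a regulator of the origin-firing kinase CDC7, by 0.98 and 0.78. RNASEH2A, part of the enzyme that removes RNA from DNA, rose by 0.78 and 0.71, PRIM2, a primase subunit, by 0.63 and 0.37, and DTYMK, which makes dTDP, by 0.72 and 0.67. RECQL4, a helicase of replication initiation, rose by 0.84 and 0.51, and CAD, which starts pyrimidine synthesis, by 0.40 and 0.26. CLSPN, the checkpoint adaptor claspin, and ASF1B, a histone chaperone, rose with sh1 by 0.53 and 0.51 and were at 0.18 and 0.20 with sh3 (edgeR adjusted p = 0.07 and 0.15). DNMT1, the maintenance DNA methyltransferase, rose by 0.23 and 0.21.

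Genes of the same processes also fell, though the 7 of 71 with sh1 and 4 of 71 with sh3 were below the background share. SAMHD1, which breaks down deoxynucleotides, fell by 0.47 on the log2 scale with sh1 (edgeR adjusted p = 1.7e-05) and by 0.60 with sh3 (adjusted p = 6.7e-06). ORC4 fell with sh3 by 0.24 (adjusted p = 0.0021) and was at -0.09 with sh1 in the edgeR test (adjusted p = 0.14). POLD4, a small subunit of polymerase delta, fell with sh1 by 0.44 (edgeR adjusted p = 0.00031) and was at 0.06 with sh3 (adjusted p = 0.56).

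Upstream of E2F, RB1, which encodes the retinoblastoma protein, had 61.2, 57.9 and 60.5 CPM in sh1 and 133, 136 and 129 in sh3, against 131, 133 and 138 in shNC. The sh1 libraries stood apart, at -1.16 against shNC (edgeR adjusted p = 1.5e-09), and sh3 was at -0.01 (adjusted p = 0.82). The difference of sh3 over sh1 was 1.15 (edgeR adjusted p = 4.1e-09). RBL1, an RB relative, rose by 0.24 and 0.19, E2F4, a mostly repressive E2F, rose by 0.38 and 0.41, and TFDP2, an E2F partner, fell by 0.27 and 0.40 with sh1 and sh3.

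Of the 7 CDK inhibitors, 2 rose and 1 fell with sh1, and 4 rose and 1 fell with sh3. The background was 19.9% higher and 18.8% lower with sh1, and 14.4% higher and 12.4% lower with sh3. The counts with sh1, and the 1 that fell with sh3, are near that background. CDKN1A, p21, fell with sh3 by 0.24 and was at -0.04 with sh1. CDKN1B, p27, was at -0.03 with sh1 and 0.10 with sh3 and passed in neither. CDKN1C, p57, fell by 1.07 with sh1 (edgeR adjusted p = 2.8e-05) and was at -0.25 with sh3 (adjusted p = 0.16). CDKN2C and CDKN2D, INK4 inhibitors of CDK4 and CDK6, were at 0.30 and 0.16 with sh1 and at 0.58 and 0.42 with sh3, and of these values the 0.16 did not pass. CDKN2A had 25, 26 and 33 counts in sh1 and 81, 84 and 48 in sh3, against 18, 5 and 7 in shNC, and CDKN2B had 13, 11 and 4 in sh1 and 27, 35 and 31 in sh3, against 9, 2 and 3 in shNC. Both had low levels, at most 1.40 CPM for CDKN2A and 0.582 CPM for CDKN2B in any library. CDKN2A was called higher with each hairpin (1.52, edgeR adjusted p = 0.02, and 2.85, adjusted p = 0.00066), and CDKN2B with sh3 (2.75, adjusted p = 0.012) and not with sh1 (1.07, adjusted p = 0.28).

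Mitosis genes also moved, but their list was chosen with earlier results of these data known, so its counts are a description. All 26 listed rose with each hairpin, at medians of 0.96 with sh1 and 0.84 with sh3, and their summed level was 6208 to 6231 CPM in sh1 and 5652 to 5714 in sh3, against 3005, 3046 and 3557 in shNC, where replicate 3 was the highest. Of all tested genes, 19.9% were called higher with sh1 and 14.4% with sh3. In sh3 against sh1, 9 of the 26 were lower, where the background was 13%. Of 10 tested replication-dependent histone genes, whose mRNAs mostly lack the poly(A) tail used for selection, 3 were called lower with sh1 and 1 with sh3. These counts are near the background of 18.8% and 12.4% of all tested genes called lower. Their summed level was 19.3 to 20.3 CPM in sh1 and 23.7 to 25.5 in sh3, against 26.7 to 27.5 in shNC.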

How the data were processed

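Poly(A) RNA of 9 SKOV3 samples (sh1, sh3 and shNC, 3 each) went into strand-marked libraries and paired-end sequencing, per the labels' protocols. The authors deposited raw counts of reads for each gene, as whole numbers. FPKM values stand beside them in the same table, per the file headers. The submitters' processing notes name cutadapt 1.9, HISAT2 2.2.1, StringTie 2.1.6, DESeq2, edgeR and GRCh38. What each tool did, and whether counting used strand, is not stated. Coordinates of genes are those of the deposited table.

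Counts were fitted with edgeR 4.0.16 in R 4.3.3 (filterByExpr with its minimum count of 10, TMM, glmQLFit, glmQLFTest), with 1 mean per group, no block, two-sided tests and Benjamini-Hochberg adjustment over the 21296 genes tested. The SE of a log2 fold change is its size divided by the square root of F. CPM used TMM-scaled totals, and depth was 57654447 to 69264400 counts per library. No replicate was a copy of another, since chi-square over degrees of freedom was 9.01 to 18.9 between replicates. The fit was checked on simulated counts.

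The 41 genes and all other lists were chosen with earlier results of these data known. All 41 are named, and 21 are given in full: in each role the 3 called genes with the largest change of the mean contrast (all, in roles of 4 or fewer), every gene called lower with a hairpin, and those called in sh3 against sh1 with a log2 difference of at least 0.3. Of the other pathway genes, up to 2 called per role and direction by the mean contrast, and all CDK inhibitors, are named. Exon overlaps come from GENCODE 29, where 17 of the 41 genes overlap another gene of the table and 9 overlap one with over 10% of their counts. The bases given are the longest overlap between any exon of each gene of a pair. Promoter windows are from RefSeq (GRCh38.p14). The alternatives tried were DESeq2 1.42.0 with size factors of its own, library totals, no filter, the replicate block, limma 3.58.1 on log2(FPKM + 1) and log2(FPKM + 0.1) over genes with a mean of at least 0.5 FPKM, limma without that filter, and leaving out each library in turn.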

Additional observations from a re-analysis of the deposited data

Results flagged for a closer look

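For 24 of the 41 genes the effects of the hairpins differed, by the direct edgeR test of sh3 against sh1 (adjusted p under 0.05, over all genes). In that test 12.9% of all tested genes were called higher in sh3 and 13% lower. The log2 differences (sh3 over sh1) of cyclins and kinases were 0.18 for CCND3, -0.25 for CCNE1, -0.31 for CDK2, -0.15 for CDK4 and -0.39 for CDK6. In the licensing and helicase role they were -0.37 for ORC6, -0.23 for CDC6, -0.10 for MCM2, -0.084 for MCM5, -0.28 for MCM10, -0.32 for CDC45, -0.31 for GINS1 and -0.36 for GINS2. Fork genes stood at -0.18 for POLA1, -0.36 for POLE2, -0.10 for PCNA, -0.25 for RFC3, -0.36 for RFC4 and -0.21 for RPA2. Nucleotide supply genes were at -0.24 for RRM1, 0.33 for RRM2 and 0.15 for TYMS, and chromatin genes at 0.11 for CHAF1B and -0.13 for SLBP. Of these 24 differences, 15 passed the test under all 16 alternatives.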

How the results depend on the processing

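Across 16 alternatives the 41 genes gave 164 values in 4 contrasts. Of 103 called values, 81 passed in every alternative and 22 were lost in at least 1. Of the others, 16 were gained in at least 1, E2F1 with sh3 among them. No called value changed sign, and the 44 sign changes were all between values that passed neither time. By contrast, the calls that held in every alternative were 25 of 31 with sh1, 16 of 21 with sh3, 25 of 27 for their mean and 15 of 24 for sh3 against sh1. Another scaling moved the median of all genes by at most 0.037 (log2).

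Genes lower with sh1 numbered 4 with limma at either pseudocount, against 2 in edgeR. Genes lower with sh3 numbered 4 with library totals and 1 with no filter, against 2. Genes higher in sh3 than in sh1 numbered 2 with no filter, against 4. Of the other pathway genes, 15 were lower in sh3 than in sh1 with unfiltered limma, against 32. The cause was not tested.

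Leaving out each library in turn gave 26 to 30 genes higher and 2 lower with sh1, 17 to 20 higher and 1 to 2 lower with sh3, 24 to 29 higher and 2 lower for the mean, and 1 to 4 higher and 15 to 22 lower in sh3 against sh1. The 1 gene lower with sh3 was seen without sh3 replicate 2 or 3. In sh3 against sh1, 1 was higher without sh1 replicate 1, and 2 without sh1 replicate 2 or 3 or any of the 3 sh3 libraries. For the other pathway genes the ranges were 43 to 50 higher and 7 lower with sh1, 20 to 29 and 3 to 4 with sh3, 39 to 46 and 7 to 8 for the mean, and 6 to 7 and 20 to 36 in sh3 against sh1, with 20 without sh3 replicate 1.

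The replicate numbers did not pair the libraries: same-numbered libraries had correlations of -0.032 to 0.021 in their deviations from group means, and 0 of 9 correlated best with their own number. With the replicate block 29 genes rose and 2 fell with sh1, 20 and 2 with sh3, 25 and 2 for the mean, and 3 were higher and 19 lower in sh3 against sh1.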
